A study of Mus musculus with 11 samples.

Results

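Quiescent satellite cells (QSCs) of old mice were profiled for 2 histone marks, H3K4me3 and H3K27me3, and both peak lists of these cells were set against each other here. All peaks of both lists were joined into merged intervals wherever they shared at least 1 bp, and each interval was classed as H3K4me3 only, H3K27me3 only or both marks. This gave 34749 merged intervals, made from 24453 H3K4me3 peaks and 17635 H3K27me3 peaks, of the 212879 peaks in all 8 lists of the series. The same rule gave 32728 intervals in QSCs of young mice and 65320 in activated satellite cells (ASCs) of young mice, which are used below only to show where old QSCs differ.

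H3K4me3 is laid down by the Trithorax-related MLL and SET1 methyltransferases and marks the promoters of active and poised genes. H3K27me3 is laid down by EZH1 and EZH2 in Polycomb repressive complex 2 and marks repressed chromatin, either at promoters or in broad domains. Promoters that carry both marks are called bivalent and were first described at developmental genes of embryonic stem cells. Satellite cells are the stem cells of skeletal muscle, which lie quiescent beneath the basal lamina of the fibre until injury activates them.

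By the sample descriptions, the cells came from hindlimb muscles of uninjured male C57BL/6 mice and were sorted as VCAM+/CD31-/CD45-/Sca1-, old QSCs at 22 to 24 months of age and young cells at 2 to 3 months. The sources differ on the ASCs: the sample descriptions have them as QSCs of young mice put into culture, whereas the study's text speaks of satellite cells activated in muscle by injury, so what an ASC comparison refers to is not settled here. For the old mice the study's text names only the upper end of the age range. Sorted cells were crosslinked and kept frozen until enough had been gathered, and each mark of each cell state was profiled by ChIP-seq in 1 library, with an input library as the background. With 1 library per group there is no replicate and cell states were not tested against each other. The intervals given with shares are Wilson 95% intervals, which cover counting error only. Read numbers are unknown for every list, so a weak peak that is absent from a list may have been missed at that depth. Whether both lists of old QSCs were called against the same input library is not given in the sources used here. The marks were read in separate libraries of pooled cells, so an overlap of peaks cannot be told apart from marks that lie on different cells or alleles. No interval was screened for repeated sequence or looked up in the input libraries, so background common to both libraries was not tested. No gene was assigned to a peak, because no mm9 annotation was used here, so the label of the sorted cells was not checked against marker genes.

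Most marked intervals of old QSCs carried a single mark, and H3K4me3 more often than H3K27me3. The H3K4me3 only class held 17450 intervals (50.2%, 49.7 to 50.7) and 29.4 Mb, which is 60.9% of the covered length. H3K27me3 only held 10352 intervals (29.8%, 29.3 to 30.3) but 8.27 Mb, or 17.1% of the covered length. Both marks were found at 6947 intervals (19.99%, 19.6 to 20.4), which covered 10.6 Mb, or 22.0%. With only peaks whose score, the peak caller's measure of significance, was at least 100, 3204 intervals carried both marks and 4306 H3K27me3 only, and with lists of equal size 4039 carried both. The share with both marks was 9.30% in young QSCs and 7.70% in ASCs, where 3043 and 5028 intervals carried both.

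The classes differed in width. H3K4me3 only intervals had a median width of 1562.5 bp, with the middle 50% of them between 1065 and 2072 bp. H3K27me3 only intervals were narrow, at a median of 741 bp (615 to 904 bp). Intervals with both marks lay between them at 1323 bp (1024 to 1791 bp), although joining overlapping peaks can only widen an interval. In young QSCs the median width of the intervals with both marks was 2491 bp, and in ASCs it was 2276.5 bp.

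**Figure D1:**
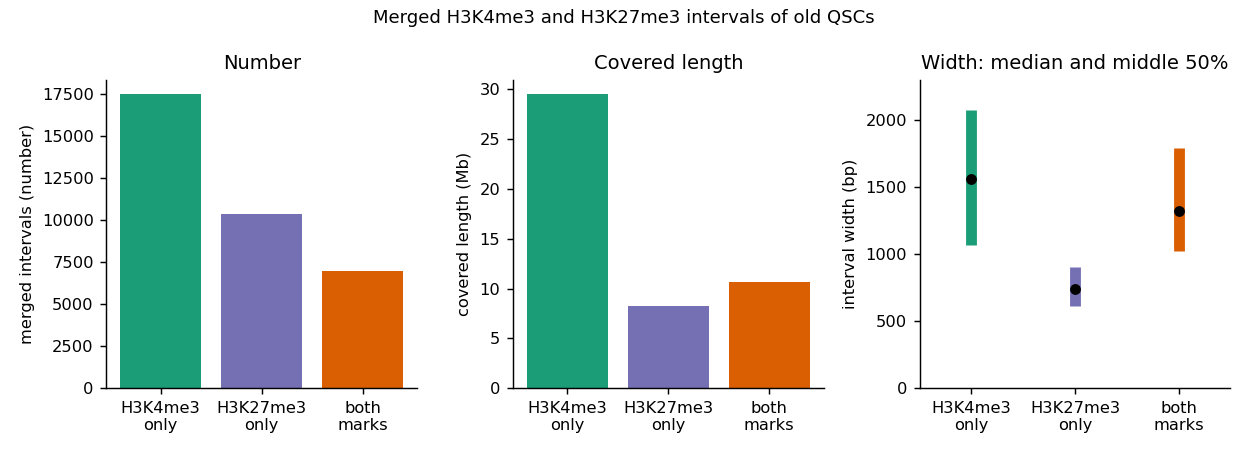
Merged intervals of old QSCs by class: the number of intervals, the length they cover in Mb, and their width in bp, where the black point is the median and the bar holds the middle 50%. H3K4me3 only leads in number (17450) and length (29.4 Mb), and H3K27me3 only is the narrowest class, at a median of 741 bp.

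Most intervals with both marks were simple. Of the 6947, 6598 (94.98%) joined 1 peak of each mark. Another 275 held 1 H3K4me3 peak with 2 H3K27me3 peaks, 17 held 1 with 3, and 1 held 1 with 4. In 34 intervals 2 H3K4me3 peaks met 1 H3K27me3 peak. A further 20 intervals joined 2 peaks of each mark, and 2 joined 2 H3K4me3 peaks with 3 H3K27me3 peaks.

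Bases under both marks summed to 7.74 Mb in old QSCs, which is 45.8% of all H3K27me3 bases, 19.7% of all H3K4me3 bases and 16.0% of the union. The corresponding share of H3K27me3 bases was 20.7% in young QSCs (4.44 Mb) and 12.9% in ASCs (6.31 Mb). Inside the intervals with both marks, 89.9% of the H3K27me3 bases and 79.3% of the H3K4me3 bases were shared. The median interval had both marks over 79.1% of its length (66.2 to 87.9% for the middle 50%), against 50.9% in young QSCs and 49.0% in ASCs. At least 80% of the length was shared in 3316 intervals (47.7%), and under 20% in only 43 (0.619%). Overlaps at the flanks of neighbouring peaks were thus few among the 6947.

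The peak score, which is 10 times the negative log10 of the p-value that the peak caller MACS gives, moved in opposite directions for the marks. It is compared only within a list, since it rises with depth, and its lowest value is 50 and its usual ceiling 3100. H3K4me3 peaks that overlapped H3K27me3 (7003 of 24453, 28.6%) had a median score of 158, against 1369.7 for those that did not, and 8.65% against 29.1% of them reached 3100. H3K27me3 peaks that overlapped H3K4me3 (7283 of 17635, 41.3%) had a median score of 139, against 74.2 for the rest. A score of at least 100 was reached by 66.8% of the former and 27.2% of the latter. In young QSCs the H3K4me3 medians lay closer together, at 525 with and 607 without H3K27me3, while the H3K27me3 medians were 298 and 84.8. In ASCs H3K4me3 peaks with H3K27me3 had the higher median, at 1147 against 251, and the H3K27me3 medians were 667 and 88.6.

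Split into deciles of the list by score, H3K4me3 peaks of old QSCs carried H3K27me3 most often among the weak peaks. The share was 40.6%, 43.9% and 44.7% in deciles 1, 2 and 3, counted from the lowest score, and fell from there through 30.1% in decile 6 to 10.4% in decile 10. Deciles 8 to 10 hold peaks tied at 3100, so their order among themselves carries no meaning. The order was another in the other cell states: in young QSCs decile 1 had 6.96%, decile 5 had 25.9% and decile 10 had 7.17%, and in ASCs decile 7 led with 35.0%.

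Among H3K27me3 peaks of old QSCs the share with H3K4me3 climbed at every step, from 18.0% in decile 1 through 28.6% in decile 5 to 92.2% in decile 10. In young QSCs the share went from 8.40% in decile 1 to 80.02% in decile 10, and in ASCs from 2.82 to 70.7%, with a small step down among the lowest 3 deciles in each. Below the highest decile, H3K27me3 peaks without H3K4me3 were common, since the share with H3K4me3 was 70.6% in decile 9 and 55.8% in decile 8. At a score of at least 100, 2819 H3K27me3 peaks lay outside H3K4me3 and 4866 overlapped it.

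**Figure D2:**
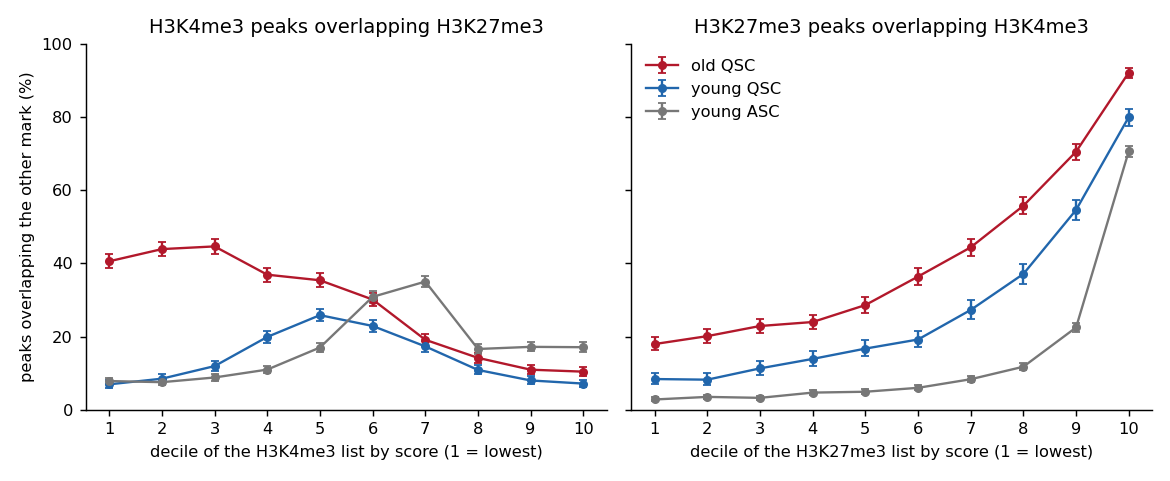
Share of H3K4me3 peaks that overlap H3K27me3 (left) and of H3K27me3 peaks that overlap H3K4me3 (right), in %, by decile of each list from the lowest score (1) to the highest (10), with Wilson 95% intervals as bars. In old QSCs the left curve falls from 40.6 to 10.4% and the right curve rises from 18.0 to 92.2%.

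By width, the share of H3K4me3 peaks with H3K27me3 was lower in wide peaks, though not in steady steps. It was 38.3% under 1 kb, 29.4% at 1 to 2 kb, 16.2% at 2 to 3 kb, 21.4% at 3 to 5 kb and 15.2% at 5 kb and over. For H3K27me3 the share rose from 27.9% under 1 kb to 68.3% at 1 to 2 kb and 91.6% at 2 to 3 kb. Above that, few H3K27me3 peaks were left, 105 of 113 at 3 to 5 kb (92.9%) and 13 of 17 at 5 kb and over (76.5%). The median width differed between the lowest and highest decile of score, from 786 to 2190 bp for H3K4me3 and from 622.5 to 1592 bp for H3K27me3. Width and score thus varied together, and their parts in these shares were not separated.

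When intervals with both marks were split at a score of 100 for each mark, 3203 (46.1%) had both marks at 100 or more and 1067 (15.4%) had both below. H3K27me3 alone reached 100 in 1486 (21.4%) and H3K4me3 alone in 1191 (17.1%). The overlap in length was lower in the last group, where 60.03% of the median interval was shared, than in the others, at 80.5 to 81.6%. The groups also differed in how often they met the lists of young cells. Young QSC H3K27me3 was present at 71.5% of the intervals strong for both marks, 26.7% of those strong for H3K4me3 alone, 19.2% of those strong for H3K27me3 alone, and 5.25% of those weak for both. Young QSC H3K4me3 was present at 85.4%, 87.0%, 27.6% and 20.5% of them, in the same order, and ASC H3K4me3 at 80.5%, 82.3%, 13.1% and 9.65%. Most intervals with a weak H3K4me3 score thus had no H3K4me3 peak in either young list, and background at them was not tested.

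The position of the H3K27me3 peak was read from the 7339 pairs of overlapping peaks in old QSCs. In 2887 pairs (39.3%, 38.2 to 40.5) the H3K27me3 peak lay wholly within the H3K4me3 peak. It crossed an edge in 3054 pairs (41.6%, 40.5 to 42.7) and enclosed the H3K4me3 peak in 1398 (19.0%, 18.2 to 19.96). With crossings of at most 100 bp counted as within, 65.3% lay within, and with lists of equal size 51.6% did, so the order of within and crossing depends on these choices. In young cells H3K27me3 enclosed H3K4me3 in 49.9% of 3631 pairs of young QSCs and 52.6% of 5833 pairs of ASCs, and lay within it in 10.9% and 16.6%. H3K27me3 was the wider peak in 38.1% of the pairs of old QSCs, 71.5% of those of young QSCs and 68.2% of those of ASCs.

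Pairs that crossed an edge did so by little. The H3K27me3 peak reached a median of 96 bp beyond the H3K4me3 edge, and 51.5% reached at most 100 bp. In young QSCs the median reach was 611 bp and in ASCs 372 bp. Where H3K27me3 enclosed H3K4me3, it extended 234 bp beyond in all, both sides added, against 2158 bp in young QSCs and 2141 bp in ASCs. Where it lay within, the nearer edge was a median of 95 bp away and the farther 293 bp.

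The relations went with both the width and the score of the peaks. For pairs with H3K27me3 within, crossing an edge and enclosing, the median H3K4me3 width was 1521, 1132 and 976 bp. The H3K27me3 width was 910, 1068 and 1261.5 bp in the same order. Only a narrower peak can lie within another, and the parts of width and score were not separated. The median H3K4me3 score was 824 in pairs with H3K27me3 within, 122 in those that crossed an edge and 91.3 in those enclosed by H3K27me3. The median H3K27me3 score ran the other way, at 109.8, 148 and 186.

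Peaks of both marks in old QSCs were nearly concentric. The centres of a pair lay a median of 90 bp apart, and within 100 bp in 53.9% and within 250 bp in 80.6% of pairs. In young QSCs the median was 447 bp and in ASCs 357 bp, with 18.0% and 22.0% of pairs within 100 bp. Both edges coincided within 250 bp in 58.9% of the pairs of old QSCs, 14.3% of those of young QSCs and 16.5% of those of ASCs. As a share of the joint length of a pair, the bases in common came to a median of 77.1% (60.4 to 87.1%), against 43.5% and 41.5% in young QSCs and ASCs. At least 80% was in common in 3198 pairs (43.6%), against 11.02% and 10.3%.

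**Figure D3:**
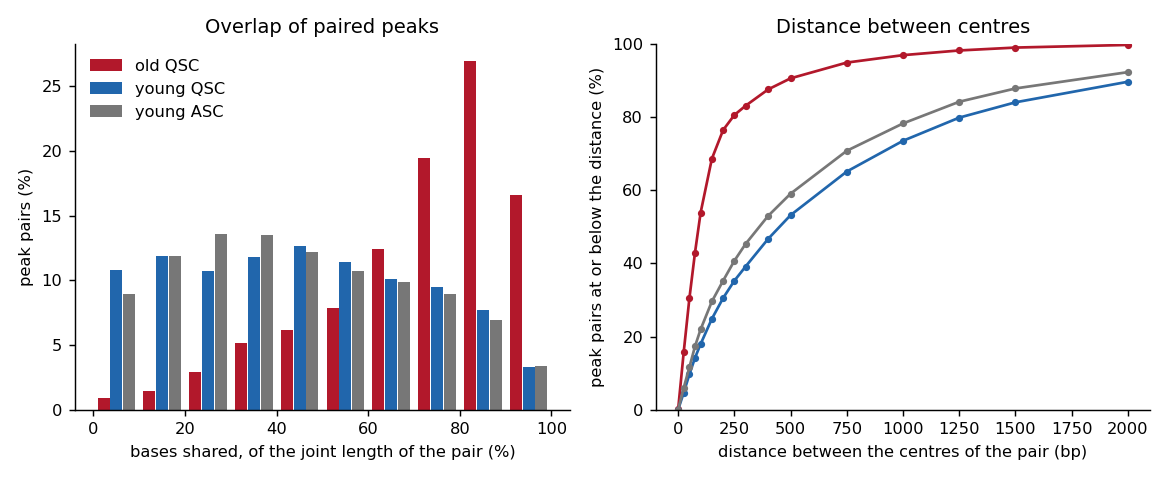
Left, distribution of the bases shared by a pair of overlapping H3K4me3 and H3K27me3 peaks, in % of the joint length and in bins of 10%; right, cumulative share of pairs by the distance between their centres in bp. Old QSC pairs peak between 80 and 90% shared, and 53.9% of them have centres within 100 bp, against 18.0% in young QSCs and 22.0% in young ASCs.

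The difference in shape was also present at shared sites. At 1871 places where old and young QSCs each had a pair of peaks, the median share in common was 79.0% in old and 55.5% in young QSCs, and it was higher in old QSCs at 75.8% of them (73.9 to 77.7). H3K27me3 peaks there measured a median of 1253 bp in old QSCs against 2015 bp in young QSCs, whereas H3K4me3 measured 1464 and 1370 bp. At 2438 places shared with ASCs the medians were 76.1% and 49.2%, with H3K27me3 at 1126.5 and 2188 bp. The 4713 pairs of old QSCs without a counterpart pair in young QSCs shared a median of 79.2% and were smaller, with H3K4me3 at 1067 bp and H3K27me3 at 961 bp. These and the 1871 do not make up all 7339 pairs of old QSCs. Lack of a counterpart pair does not mean that young QSCs had no mark there. Depth and fragment length of the libraries, which can set the width of a peak, were not known and their part in the difference was not tested.

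Across pairs made of 1 peak of each mark, the widths of the marks ranked together in old QSCs, with a Spearman rho of 0.56 for width and 0.26 for score. In young QSCs rho was 0.22 and 0.10, and in ASCs 0.16 and 0.17. These pairs share their libraries and are a description of them.

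In wide H3K4me3 peaks, H3K27me3 lay more often towards a side. For H3K4me3 peaks under 1 kb, 1 to 2 kb, 2 to 3 kb and 3 kb and over (2328, 3753, 878 and 380 pairs), the H3K27me3 centre lay in the inner 50% of the H3K4me3 peak in 91.7%, 92.7%, 79.4% and 56.6%. It lay in the outer 50% in 5.50%, 5.41%, 18.3% and 41.8%, and the distance between centres grew from 66.5 bp to 760.75 bp. The share of pairs with H3K27me3 wholly within rose from 18.8% to 64.7% over the same classes, and the joint length in common fell from 78.1% to 38.0%. Positions in the outer part were thus most frequent in the widest H3K4me3 peaks. The median width of H3K27me3 rose only from 846.5 to 1500.5 bp over these classes. A wide H3K4me3 peak therefore leaves more room for a centre in the outer part and for a peak wholly within. No level for peaks placed at random was computed, so these shares do not show a preferred position.

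The 275 H3K4me3 peaks with 2 H3K27me3 peaks were of the wide and strong kind. They measured a median of 2325 bp and scored a median of 1821, against 1175 bp and 143 where 1 peak of each mark met. The gap between the H3K27me3 peaks was a median of 110 bp and held the centre of the H3K4me3 peak in 59 of them (21.5%). In 102 both H3K27me3 peaks lay inside, in 131 an edge was crossed, and in 42 both edges were crossed, with H3K27me3 on either flank.

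The distance from H3K27me3 only peaks to H3K4me3 was measured without a level for peaks placed at random. The nearest H3K4me3 peak was a median of 32.1 kb away from the 10352 H3K27me3 only peaks of old QSCs, under 1 kb in 4.61% and over 50 kb in 39.9%. Young QSCs had these peaks closer, at a median of 10.6 kb with 10.2% under 1 kb, and ASCs at 19.5 kb with 4.87%. The H3K4me3 lists hold 24453, 24701 and 32846 peaks in old QSCs, young QSCs and ASCs, and a longer list lowers such distances. Seen from the other mark, H3K4me3 only peaks of old QSCs lay a median of 58.8 kb from the nearest H3K27me3 peak.

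As the level to expect from lists placed without regard to each other, the H3K27me3 list was moved round each chromosome to 99 evenly spaced places. On average 428 peaks (2.43%; 353 to 562) then overlapped H3K4me3, against 7283 observed, a ratio of 17.0. Shared bases came to 0.260 Mb on average against 7.74 Mb, a ratio of 29.7. The ratio of peaks was 8.45 in young QSCs and 3.91 in ASCs, whose lists differ in number and width of peaks. Within old QSCs it grew with the H3K27me3 score, from 8.14 in the lowest decile to 28.1 in the highest, while the placed share only went from 2.21 to 3.28%. The placements keep the spacing of the peaks but also put them into stretches of a chromosome where neither list has peaks, so the ratio covers shared regions of the genome as well as shared sites.

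Short moves showed how local the overlap was. After a move of 500 bp the number of overlapping H3K27me3 peaks was 100.8% of that without a move, but the bases shared were down to 70.7%. A move of 1 kb left 68.0% of the overlaps and 37.0% of the bases, and moves of 2, 5 and 10 kb left 23.1%, 14.8% and 12.9% of the overlaps. In young QSCs, 96.8% of overlaps were left at 1 kb, 71.0% at 2 kb and 45.1% at 5 kb, and in ASCs 92.1%, 70.9% and 52.0%. These shares approach different floors. A move of 1 Mb still left 7.58% of the overlaps in old QSCs, 19.2% in young QSCs and 42.5% in ASCs. The floors were not subtracted, so the shares left are not a like measure of how local the overlap is in each state. The widths of the peaks set part of this fall, and they are smaller for H3K27me3 in old QSCs.

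**Figure D4:**
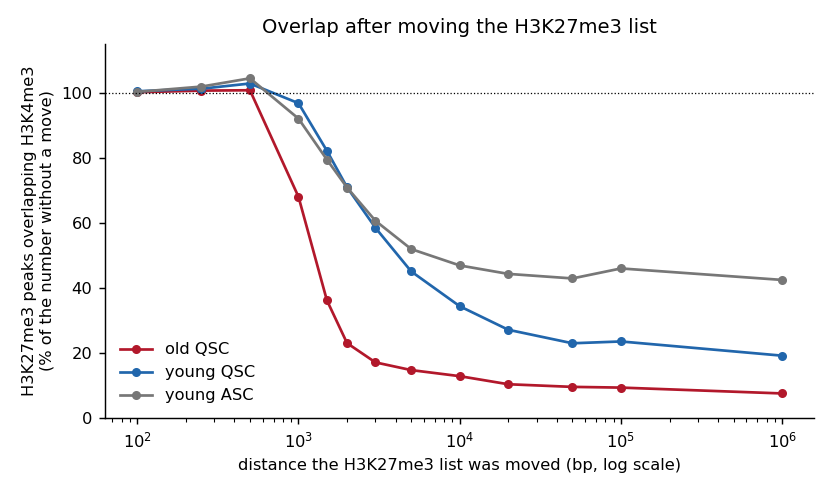
H3K27me3 peaks that overlap H3K4me3 after the H3K27me3 list was moved along the chromosomes, in % of the number without a move, against the distance of the move in bp on a log scale (mean of a move in each direction). Old QSCs fall to 23.1% at 2 kb, where young QSCs keep 71.0% and ASCs 70.9%. The floors differ, at 7.58% in old QSCs, 19.2% in young QSCs and 42.5% in ASCs after 1000000 bp.

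Among chromosomes, the share of intervals with both marks ran from 16.8% on chromosome 17 to 23.4% on chromosome 13 and was 24.7% on chromosome X (307 of 1241, 22.4 to 27.2). Chromosome Y held 19 intervals, 6 of them with both marks. Chromosome X supplied 4.42% of the intervals with both marks (3.96 to 4.93), 3.66% of H3K27me3 only and 3.18% of H3K4me3 only. In young QSCs it supplied 1.02%, 0.747% and 3.06%, and in ASCs 1.73%, 1.19% and 2.24%. Both classes with H3K27me3 thus had a higher X chromosome share in old QSCs than in either young state. For H3K4me3 only, the intervals of the share overlapped between old and young QSCs (2.93 to 3.45 and 2.84 to 3.30), and that of ASCs lay below (2.07 to 2.42).

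The lists of young cells, which the classes did not use, were then laid over the old QSC intervals. Of the H3K4me3 only intervals, 87.4% met H3K4me3 of young QSCs and 85.9% that of ASCs, by at least 1 bp. Both-mark intervals met H3K4me3 at 63.3% and 55.5% and H3K27me3 at 42.5% in young QSCs and 74.4% in ASCs. H3K27me3 only intervals met H3K27me3 at 13.5% in young QSCs and 43.2% in ASCs, and 80.8% of them had neither mark in young QSCs. The ASC list of H3K27me3 is the longest of the lists for that mark, with 38307 peaks against 11658 in young QSCs. A longer list can meet more intervals, and no level for lists placed at random was computed for these shares.

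H3K36me3, which is laid down by SETD2 along the bodies of transcribed genes, was profiled in young cells only. It was found in young QSCs at 18.6% of the intervals with both marks, 10.6% of H3K27me3 only and 7.75% of H3K4me3 only. In ASCs the order was the opposite, with 4.002%, 5.24% and 6.69%.

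**Figure D5:**
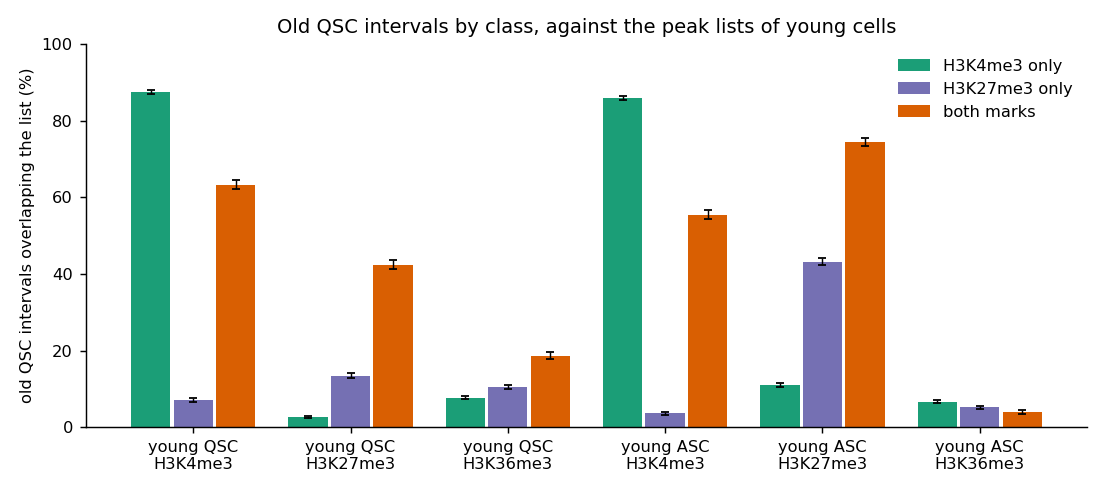
Share of old QSC intervals of each class, in %, that overlap the H3K4me3, H3K27me3 and H3K36me3 peak lists of young QSCs and young ASCs, with Wilson 95% intervals. Intervals with both marks met young QSC H3K27me3 at 42.5% and ASC H3K27me3 at 74.4%, above the other classes in each.

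The 6947 intervals with both marks in old QSCs fell into distinct groups by what young QSCs carried there. Both marks were present in young QSCs at 2671 (38.4%), H3K4me3 alone at 1729 (24.9%), H3K27me3 alone at 278 (4.002%) and neither at 2269 (32.7%). The first group was the strongest in old QSCs, with median scores of 940.1 for H3K4me3 and 267 for H3K27me3 and a median width of 1697 bp. Nearly all of it was marked in ASCs too, at 97.8% for H3K27me3 and 94.4% for H3K4me3. Where young QSCs had H3K4me3 alone, the scores in old QSCs were 229 and 94.1, and the shared part of the interval was the lowest of the groups, at 70.9%.

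Intervals with neither mark in young QSCs were weak for H3K4me3 and compact in old QSCs. Their median scores were 73.5 for H3K4me3 and 111 for H3K27me3, they measured a median of 1039 bp, and both marks shared 82.8% of the length. For H3K27me3 they were not weak within the list, whose peaks had a median score of 89.6. ASCs had H3K27me3 at 49.7% of them but H3K4me3 at 4.45%, and young QSCs had H3K36me3 at 23.9%. Chromosome X held 9.61% of this group, against 0.899% of the group with both marks in young QSCs. For comparison, H3K4me3 only intervals of old QSCs with neither mark in young QSCs (2138, 12.3%) were as weak for H3K4me3, at a median score of 65.6, but met ASC H3K4me3 at 37.9%.

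Followed over all 3 cell states, 2475 of the intervals with both marks (35.6%) also had both in young QSCs and in ASCs. At 732 (10.5%) young QSCs had H3K4me3 alone and ASCs had both. Neither mark was found in young QSCs or ASCs at 1099 (15.8%), and at 1069 (15.4%) young QSCs had neither and ASCs H3K27me3 alone.

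Some intervals with both marks followed each other without a one-mark interval between them. They made up 19.99% of all intervals, and the run lengths to expect from that share alone were not computed. There were 3664 that stood alone, 899 runs of 2, 289 of 3, 93 of 4, 26 of 5, 14 of 6, 2 of 7, 1 of 8 and 1 of 10. The longest run had 10 intervals over 1234 kb (chr8:33028755-34262803, mm9) and was made of weak H3K4me3 peaks, with a median score of 89.2. Young QSCs had 5 peaks of H3K4me3 and 2 of H3K27me3 there, and ASCs 6 and 9. The run of 8 lay within 76.1 kb (chr11:96193517-96269663) and had 8 H3K4me3 and 9 H3K27me3 peaks in old QSCs. Young QSCs had 8 and 17 peaks there, and ASCs 7 and 20.

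The interval with the most shared bases was chr9:55388231-55394849, where 6114 of 6619 bp were under both marks, made of 2 H3K4me3 peaks and 1 H3K27me3 peak with scores up to 2606 and 3100. It was followed by chr6:84532994-84539786, with 5677 shared bp, and chr5:111845178-111851058, with 5664. The interval on chromosome 6 also had the most H3K27me3 peaks, 4 inside 1 H3K4me3 peak of 6793 bp, at a score of at most 887 for H3K27me3 and 3100 for H3K4me3. In young QSCs 2 H3K27me3 peaks covered 96.9% of it. The next by number of H3K27me3 peaks were chr5:33772850-33778097 and chr2:33494297-33499981, with 3 each in old QSCs, and at both a single H3K27me3 peak covered 100% in young QSCs and in ASCs.

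Only 4 intervals reached 3100 for both marks. Neighbours on chromosome 1 made up 3 of them, chr1:172993556-172997675, chr1:172997694-173005317 and chr1:173007340-173012920, and the other was chr6:83018205-83022115. The 3 neighbours also reached 3100 for both marks in young QSCs and in ASCs, and young QSCs had H3K36me3 over 63.9 to 94.8% of each. At the interval on chromosome 6 the H3K4me3 score was 1227 in young QSCs and 1906 in ASCs, and H3K36me3 was in neither list.

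The widest H3K27me3 only intervals did not look alike across the lists. The first, chr3:6297298-6307795 (10498 bp, score 556), had no H3K27me3 in young QSCs, where 4 H3K4me3 peaks covered 44.6% and H3K36me3 68.2% of it. The second, chr8:126108130-126114803 (6674 bp, score 3075), was covered over its whole length by H3K4me3 and H3K27me3 of young QSCs. At the last, chr17:39979423-39985945 (6523 bp, score 2555), H3K4me3, H3K27me3 and H3K36me3 of young QSCs all reached 3100. None of the named regions was screened for repeated sequence or looked up in the input libraries, so a mapping artefact was not tested. The widest H3K4me3 only intervals, chr6:47600395-47633415 (33021 bp), chr6:47696624-47710584 (13961 bp) and chr5:143574835-143585931 (11097 bp), were covered by H3K4me3 of young QSCs over 98.6 to 100%, and had no H3K27me3 or H3K36me3 in young QSCs or ASCs.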

How the data were processed

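ChIP DNA of old QSCs was sequenced in 1 library for H3K4me3 and 1 for H3K27me3. Peak lists of the 6 ChIP libraries of young QSCs and ASCs served for comparison, and the 3 input libraries were not analysed here on their own. The submitters' processing notes name Bowtie and the genome build mm9, and the peak names are those of MACS. Versions, reads per library and the treatment of duplicate reads are not given in the sources used here. For each peak the authors deposited a start, an end and a score, which is the MACS score of 10 times the negative log10 of the p-value against input.

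Samples were grouped by the sample descriptions. Overlaps of at least 1 bp, merged intervals, widths, shared bases and positions were computed with pandas 2.3.3 and numpy 2.4.6 under Python 3.11.15, Wilson 95% intervals with scipy 1.17.1 and figures with matplotlib 3.10.9. The functions were tested on simulated data of 2000 intervals and checked against bedtools 2.31.1, with equal results in 8 of 8 checks. For the level without local overlap, the H3K27me3 list was moved round each chromosome to 99 places in steps of 1% of its length, taken as the largest position in any list. Each move keeps the order and spacing of the peaks. No p-value was computed, since there was 1 library per group. Depth is unknown, and intervals cover counting error only.

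Regions named were the 3 intervals with the most shared bases, with the most H3K27me3 peaks and with the highest lower score (4 with ties), and the 3 widest of each class with 1 mark. The runs of intervals were chosen after their values were seen. The classes and lists were chosen with earlier results of these data known. The planned comparison with gene positions was not run, because the annotation given for this work is of the assembly GRCm38 and coordinates were not converted. For the same reason no gene is named and no sequence is shown. Alternatives were a score of at least 100, equal list sizes, autosomes only, sharing of 50% or more of the shorter peak's length, and joining of peaks less than 1 kb apart.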

Additional observations from a re-analysis of the deposited data

How the results depend on the processing

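With 1 library per group no replicate could be left out. No paired analysis was possible because no group had a second library. Of 73 values under the alternatives, 34 stayed within the counting interval of the reported value, or within 1.5 times of a count, and 39 moved. The interval for shared bases treats each base as independent and is very narrow. For differences and ratios the value compared with was held fixed. The tally is therefore no measure of how stable the results are. Only the differences, of median scores and of decile shares, could change sign, and none did. Counts, shares, widths and ratios cannot be negative. The cause of the shifts was not tested beyond what each filter removes.

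With a score of at least 100 in both lists, 3204 intervals (14.1%) carried both marks and 4306 H3K27me3 only. The width of the former was 1613 bp, the difference in median score between overlapping and other peaks -1486 for H3K4me3 and 105 for H3K27me3, and the lowest decile of H3K4me3 exceeded the highest by 24.6 percentage points in overlap. Shared bases were 47.2% of H3K27me3, the median pair shared 78.8%, the ratio to the placements was 19.9, and 71.5% and 91.0% of the intervals with both marks met H3K27me3 of young QSCs and ASCs. With lists of the same size, both marks were at 4039 intervals (13.1%, 1611 bp wide), with score differences of -1545 and 97.8, 30.5% of H3K27me3 bases shared, 51.6% of pairs with H3K27me3 within, 72.3% of a pair shared, a ratio of 12.7, and 62.6% and 86.4% over H3K27me3 of young QSCs and ASCs.

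On autosomes the H3K4me3 score difference was -1269, the ratio 16.6 and the share over young QSC H3K27me3 44.0%. With peaks under 1 kb apart joined, the width was 1379 bp, the H3K4me3 score difference -1417, the decile difference 33.2 points, the shared H3K27me3 bases 45.7%, the pairs within 36.6%, the pair share 77.8%, the ratio 16.3 and the share over young QSC H3K27me3 40.8%. Requiring 50% of the shorter peak gave a ratio of 25.1, and counting a chromosome from its first to its last peak gave 16.6. Counting crossings of at most 100 bp as within raised the pairs within from 39.3 to 65.3%, so the split between within and at the edge depends on this tolerance. Joining the H3K4me3 peaks alone gave 41.4% within and 75.9% shared. The pair share was 39.0 to 48.0% in young QSCs and 35.5 to 43.3% in ASCs under the filters, an alternative added after the data were seen. The comparison of classes with gene positions was not run.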
